A study of Bos taurus with 6 samples.

Results

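Cumulus cells are held to one another and to the oocyte by gap junctions and cadherins, and they send the oocyte signals that keep it in meiotic arrest. This machinery was read from 8 genes: GJA1, GJC1, CDH2, CDH1, TJP1, NPPC, NPR2 and KITLG. Every probe that the platform annotation lists under one of these symbols was taken, which gave 11 of the 43794 gene probes on a bovine array. GJA1 had 2 probes, CDH2 had 3 and each of the other genes had 1. Of the 11 probes, 10 passed a filter on dim signal and 9, covering 7 genes, had a value on every array and could be tested.

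The samples came from 6 Holstein dairy cows. All had been stimulated with follicle-stimulating hormone (FSH), injected 2 times a day for 3 days, and had then gone 68 h without it before cumulus-oocyte complexes were collected. The treated group received 12 mg of cetrorelix a day over 5 days, starting on day 2 of the FSH injections, and the control group received none. Cetrorelix is a peptide that acts on the pituitary receptor for gonadotropin-releasing hormone and reduces the release of luteinizing hormone (LH). The labels name it as an agonist of that receptor, although pharmacologically it is an antagonist. The complexes were vortexed to part the cumulus cells from the oocyte, and only the cumulus RNA was hybridised, after amplification. There were 3 replicates per group on 6 arrays, each array holding cetrorelix RNA in one dye and control RNA in the other, and the dyes were swapped on the second array of each replicate. The labels do not tie replicates to cows, so the p-values measure the spread between these 3 replicates, which may be partly technical.

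Gap junctions are built of connexins. GJA1 encodes the connexin that joins cumulus and granulosa cells to each other, while in mice GJA4 forms the channels at the oocyte surface. N-cadherin (CDH2) and E-cadherin (CDH1) hold neighbouring cells together through calcium-dependent contacts, and TJP1 encodes a scaffold protein under tight and gap junctions that links them to actin. In mice, granulosa cells secrete C-type natriuretic peptide (NPPC), which activates the guanylyl cyclase NPR2 on cumulus cells. The cyclic GMP made there passes through gap junctions into the oocyte, where it slows the breakdown of cyclic AMP and so holds meiosis. In mice and rats, the LH surge lowers NPPC and NPR2 activity and closes the channels. KITLG, made by granulosa and cumulus cells, signals to the KIT receptor on the oocyte.

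Between 40.9% and 70.9% of gene probes were above background in the cetrorelix channel of an array and between 54.8% and 69.7% in the control channel, background being the 95th percentile of 153 negative control spots of that array and channel. Ratios are given as log2 of cetrorelix over control, with the SD of the 3 replicates as the error. Precision is limited by having 3 replicates, each read on a dye-swapped pair of the 6 arrays. The 3 arrays with cetrorelix in Cy5 lay on one slide and the 3 with cetrorelix in Cy3 on a different one; effects of slide and of dye orientation cannot be told apart. Across tested probes, ratios turned to the same direction correlated at 0.214 to 0.64 between arrays of one slide and at -0.256 to 0.251 between arrays of different slides.

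None of the 9 tested probes of the junction and arrest genes passed an adjusted p of 0.05. TJP1 was the lowest of them, at 0.706-fold of the control (95% confidence interval 0.531 to 0.937), with an unadjusted p of 0.0201 and an adjusted p of 0.252. The more intense GJA1 probe averaged 0.745-fold of the control, but its 3 replicates ranged from above the control to well below it. The remaining probes averaged between -0.18 and 0.16. In this bulk material, fewer cells with a transcript and less of it per cell cannot be told apart.

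These counts were read against all 32125 tested probes. By limma's moderated test with Benjamini-Hochberg adjustment, 0 of 9 member probes were called, where 1.01% of all tested probes were: 244 higher (0.76%) and 81 lower (0.252%). That background count was 698, with 374 higher and 324 lower, in the fit with the replicate number as a block. It was 9, with 8 higher and 1 lower, on the authors' own normalized values, and 4, all higher, without background correction. At an unadjusted p under 0.05 the members gave 0 higher and 1 lower, where 6.35% of tested probes were higher and 6.62% lower, 13% together. The sign was the same on all 6 arrays for 0 of 9 members, against 7.19% of tested probes (3.12% higher and 4.07% lower). It was the same in all 3 replicates for 2 of 9 members, against 32.3%. The median absolute log2 ratio was 0.131 over the members and 0.156 over all tested probes. The median signed ratio was -0.07 over the members and -0.01 over all tested probes. Of the member probes, 7 lay below 0 and 2 above, where 48.2% of all tested probes lay above 0. The 7 include 2 probes of GJA1, and CDH1, which passed the filter only through the control channel.

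**Figure D1:**
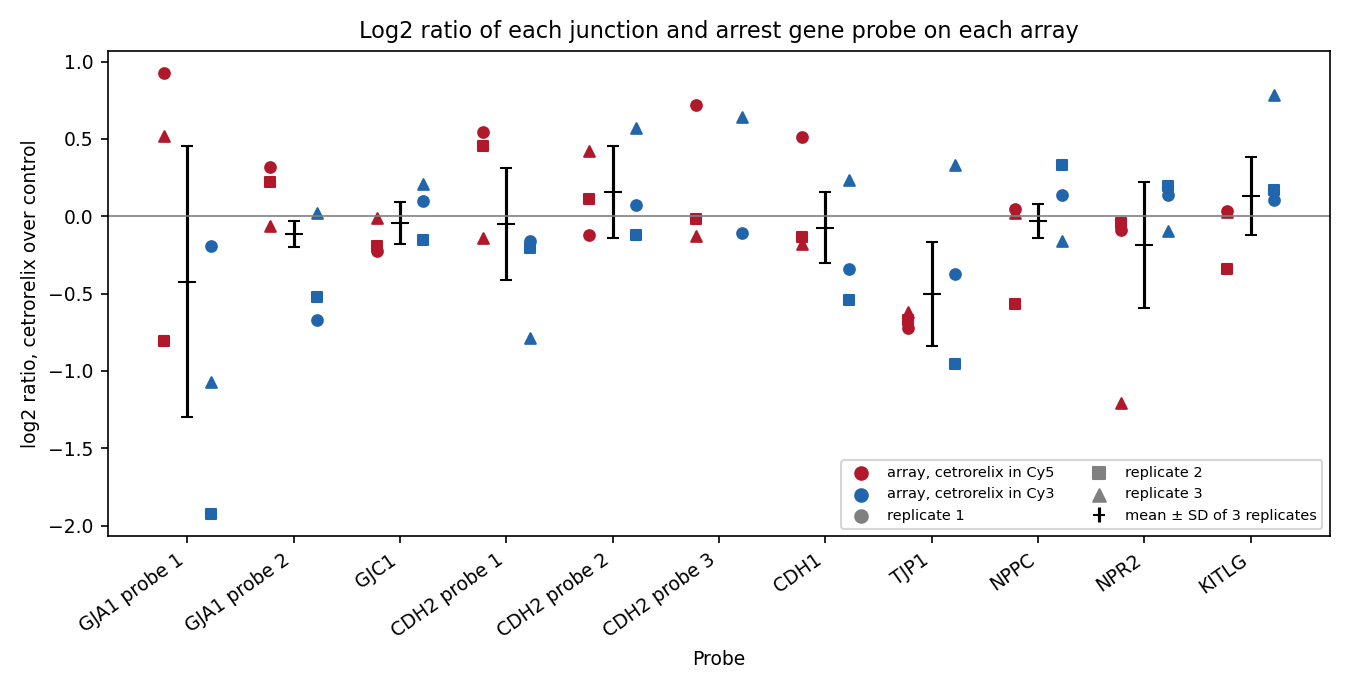
Log2 ratio of cetrorelix over control (y axis) of each of the 11 probes on each of the 6 arrays, with the mean of the 3 replicates; the dye of the cetrorelix RNA and the replicate number are marked. TJP1 lies below 0 on 5 of 6 arrays, and the points of GJA1 probe 1 spread over 2.85 log2 units.

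GJA1, the main connexin of the cumulus, was measured by a pair of probes that stood at different distances from background. Probe 1 was 51.9 to 220.9 times the median negative control in the cetrorelix channel and 113.9 to 264.2 times in the control channel, and was above background on all 6 arrays in both. Its normalized log2 level in replicates 1, 2 and 3 was 14.82, 13.56 and 14.24 after cetrorelix and 14.46, 14.92 and 14.52 in the control. The groups overlapped: replicate 1 was higher after cetrorelix, and replicates 2 and 3 were lower.

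With cetrorelix in Cy5, the array ratios of GJA1 probe 1 were 0.93, -0.80 and 0.52 in replicates 1, 2 and 3. With cetrorelix in Cy3 they were -0.19, -1.92 and -1.07. The order of the replicates was the same on both slides, and every replicate was lower with cetrorelix in Cy3, by 1.12, 1.12 and 1.59. The difference between slides averaged 1.28 (limma adjusted p = 0.00212), and 1 of 9 members passed that test where 13.1% of all tested probes did. No member had opposite signs on all arrays of the 2 slides, against 9.99% of tested probes. Averaging the swapped arrays gave replicate ratios of 0.37, -1.36 and -0.28, and a mean of -0.42 ± 0.88 (n = 3, limma adjusted p = 0.592). The SD lay at the 98.8th percentile of tested probes, with a mean intensity at the 98.6th. The interval of the fold ran from 0.498 to 1.115. Without replicate 2 the mean was 0.05, and without replicate 1 it was -0.82.

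GJA1 probe 2 was closer to background, at 2.0 to 3.8 times the negative controls in the cetrorelix channel and 2.5 to 3.9 times in the control channel, and was above background throughout. Its log2 level was 8.86, 8.55 and 8.53 after cetrorelix and 9.03, 8.70 and 8.55 in the control. All 3 replicates were slightly lower after cetrorelix, with ratios of -0.18, -0.15 and -0.02. The mean was -0.12 ± 0.08 (n = 3, limma adjusted p = 0.885, interval of the log2 ratio -0.49 to 0.26). The probes disagreed most in replicate 2, where probe 1 read 1.21 lower than probe 2 on the log2 ratio scale, while in replicate 1 it read 0.545 higher. The transcript regions they target were not analysed here.

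GJC1, a connexin of vascular and cardiac junctions that is also found in the ovary, was near the background. It was above it on 3 of 6 arrays in the cetrorelix channel and on 5 of 6 in the control channel, at 0.847 to 2.05 times the negative controls. Its replicate ratios were -0.06, -0.17 and 0.10. Levels after cetrorelix, at 7.52, 7.26 and 7.39, overlapped those in the control, at 7.58, 7.43 and 7.29. The mean ratio was -0.04 ± 0.14 (n = 3, limma adjusted p = 0.968). The interval, -0.42 to 0.33, covers folds of 0.746 to 1.26 on the measured scale.

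**Figure D2:**
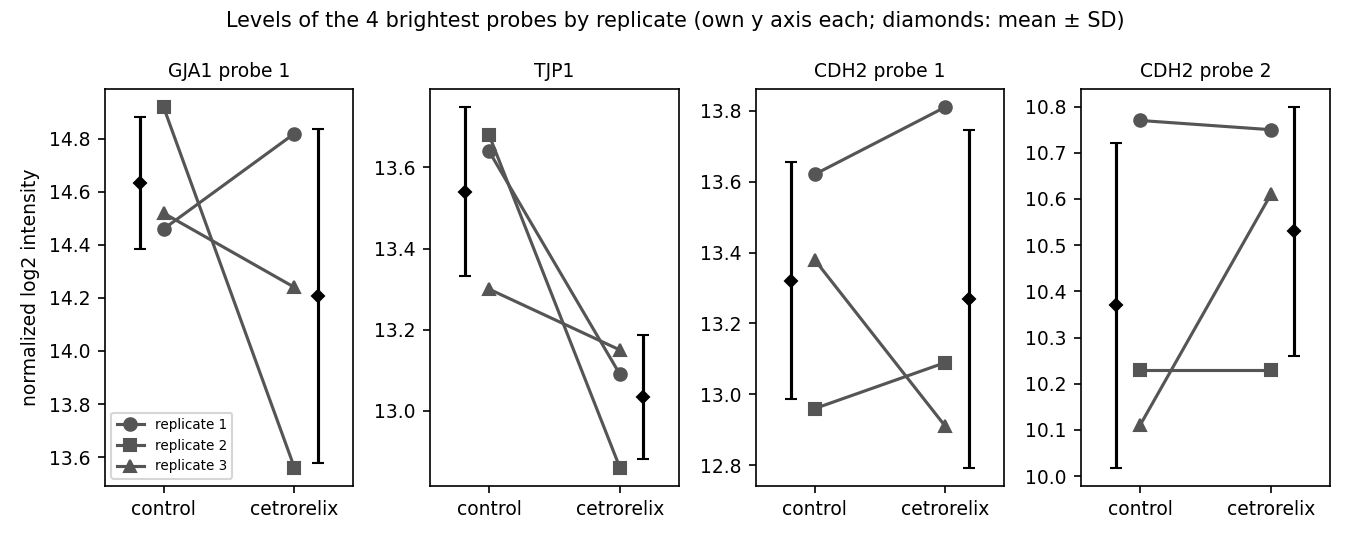
Normalized log2 level (y axis) in the control and after cetrorelix of the 4 probes farthest above the negative controls, with a line joining the values of each replicate. The TJP1 lines all fall from control to cetrorelix, those of GJA1 probe 1 cross, and the probes of CDH2 move in different directions in replicate 3.

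CDH2, the N-cadherin of follicle cells, had 3 probes. Probe 1 was 45.5 to 104.3 times the negative controls in the cetrorelix channel and 49.5 to 92.2 times in the control channel. Its level was 13.81, 13.09 and 12.91 after cetrorelix and 13.62, 12.96 and 13.38 in the control. Replicates 1 and 2 were slightly higher after cetrorelix and replicate 3 was lower, so the groups overlapped. The mean ratio was -0.05 ± 0.36 (n = 3, limma adjusted p = 0.968), with an interval of -0.46 to 0.37. On this probe too the arrays with cetrorelix in Cy5 read higher in each replicate, by 0.702, 0.659 and 0.649, and this slide difference had an adjusted p of 0.117.

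CDH2 probe 2, at 5.4 to 12.9 times the negative controls, ran the other way in replicate 3. Its level was 10.75, 10.23 and 10.61 after cetrorelix and 10.77, 10.23 and 10.11 in the control. The mean ratio was 0.16 ± 0.30 (n = 3, limma adjusted p = 0.837, interval -0.25 to 0.56), and the value rested on replicate 3, without which it was -0.01. Over the 6 array ratios the 2 probes correlated at -0.667, a description of arrays that share 3 pairs of extracts. The gap between probe 1 and probe 2 was 0.214, 0.133 and -0.963 in replicates 1, 2 and 3. No single direction can therefore be given for CDH2. Probe 3 was above background on 4 and 2 arrays, had 1 marked spot and was not tested; its 5 array ratios lay between -0.13 and 0.72.

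CDH1, the E-cadherin of epithelia, was above background on 1 of 6 arrays in the cetrorelix channel and on 4 of 6 in the control channel, at 0.712 to 1.54 times the negative controls. Its level was 7.29, 7.08 and 6.64 after cetrorelix and 7.21, 7.41 and 6.61 in the control. The ratios were 0.08, -0.34 and 0.03, with a mean of -0.07 ± 0.23 (n = 3, limma adjusted p = 0.940, interval -0.46 to 0.32). It passed the filter only through the control channel, and at this signal a ratio near 0 cannot be told from background in both channels.

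TJP1, the junctional scaffold, was well above background on every array, at 35.5 to 70.3 times the negative controls in the cetrorelix channel and 46.3 to 101.7 times in the control channel. Its log2 level in replicates 1, 2 and 3 was 13.09, 12.86 and 13.15 after cetrorelix and 13.64, 13.68 and 13.30 in the control. The groups did not overlap, each cetrorelix value lying below each control value. Levels failed to overlap for 13.3% of tested probes, 5.86% with cetrorelix higher and 7.42% with it lower, so 1 of 9 members is near that background.

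The ratios of TJP1 on single arrays were -0.73, -0.67 and -0.62 with cetrorelix in Cy5, and -0.37, -0.96 and 0.33 with cetrorelix in Cy3. The Cy5 arrays lay close together, and the single positive ratio was that of replicate 3 on the other slide. The replicate ratios were -0.55, -0.81 and -0.15, with a mean of -0.50 ± 0.34 (n = 3, lower in 3 of 3 replicates). By limma the adjusted p was 0.252, and TJP1 stood at rank 2564 of 32125 by p. Under 13 other settings the ratio stayed between -0.68 and -0.35, and the adjusted p between 0.0647, without replicate 3, and 0.919, without replicate 2.

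**Figure D3:**
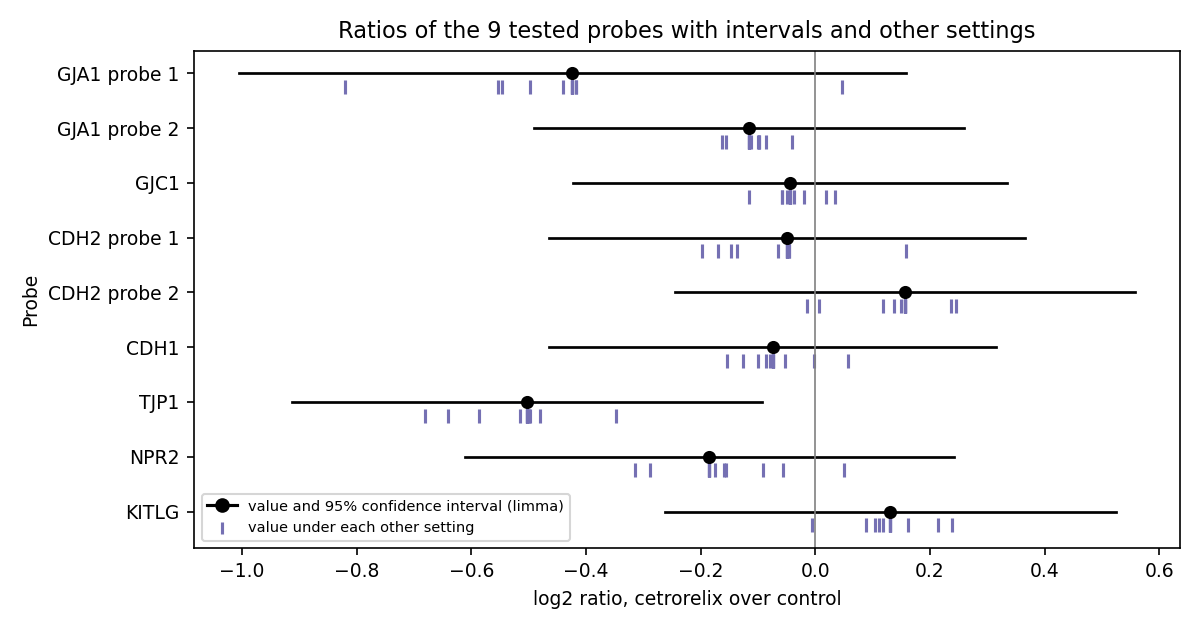
Mean log2 ratio of cetrorelix over control with its 95% confidence interval from limma (x axis) for the 9 tested probes, and below each the value under every other setting. The interval of TJP1, -0.91 to -0.09, lies below 0 before adjustment; those of the other 8 probes include 0.

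The pair that sets cyclic GMP was at or near background. NPPC, the peptide ligand, was above background on 1 of 6 arrays in the cetrorelix channel and on 2 of 6 in the control channel, and was not tested. Its signal was 0.959 to 1.346 times the negative controls after cetrorelix and 1.03 to 1.354 times in the control. Its ratios over the replicates, 0.09, -0.12 and -0.07, are values of a probe not distinguished from background. No statement on a change of NPPC can be made from them.

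NPR2, the receptor cyclase that cumulus cells carry, was above background on 4 of 6 arrays in the cetrorelix channel and on 6 of 6 in the control channel, at 0.853 to 1.86 and 1.31 to 1.77 times the negative controls. Its level was 7.63, 7.66 and 7.12 after cetrorelix and 7.61, 7.58 and 7.77 in the control. Replicates 1 and 2 overlapped the control and replicate 3 lay below it. With cetrorelix in Cy5 the array ratios were -0.09, -0.04 and -1.21, and with cetrorelix in Cy3 they were 0.14, 0.20 and -0.10. The low value of replicate 3 thus came mainly from 1 array, on which the cetrorelix signal was not above background. The mean was -0.18 ± 0.41 (n = 3, limma adjusted p = 0.807, interval -0.61 to 0.24), and without replicate 3 it was 0.05.

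KITLG, the KIT ligand, was above background on 3 of 6 arrays in the cetrorelix channel and 4 of 6 in the control channel, at 0.993 to 2.55 times the negative controls. Its level was 7.29, 7.89 and 7.45 after cetrorelix and 7.22, 7.97 and 7.04 in the control. The groups overlapped, and replicate 2 was highest in both. Ratios were 0.04, -0.34 and 0.03 with cetrorelix in Cy5 and 0.11, 0.17 and 0.78 with cetrorelix in Cy3, above 0 on 5 of 6 arrays. The mean was 0.13 ± 0.25 (n = 3, limma adjusted p = 0.871, interval -0.26 to 0.52), and without replicate 3 it was -0.01.

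**Figure D4:**
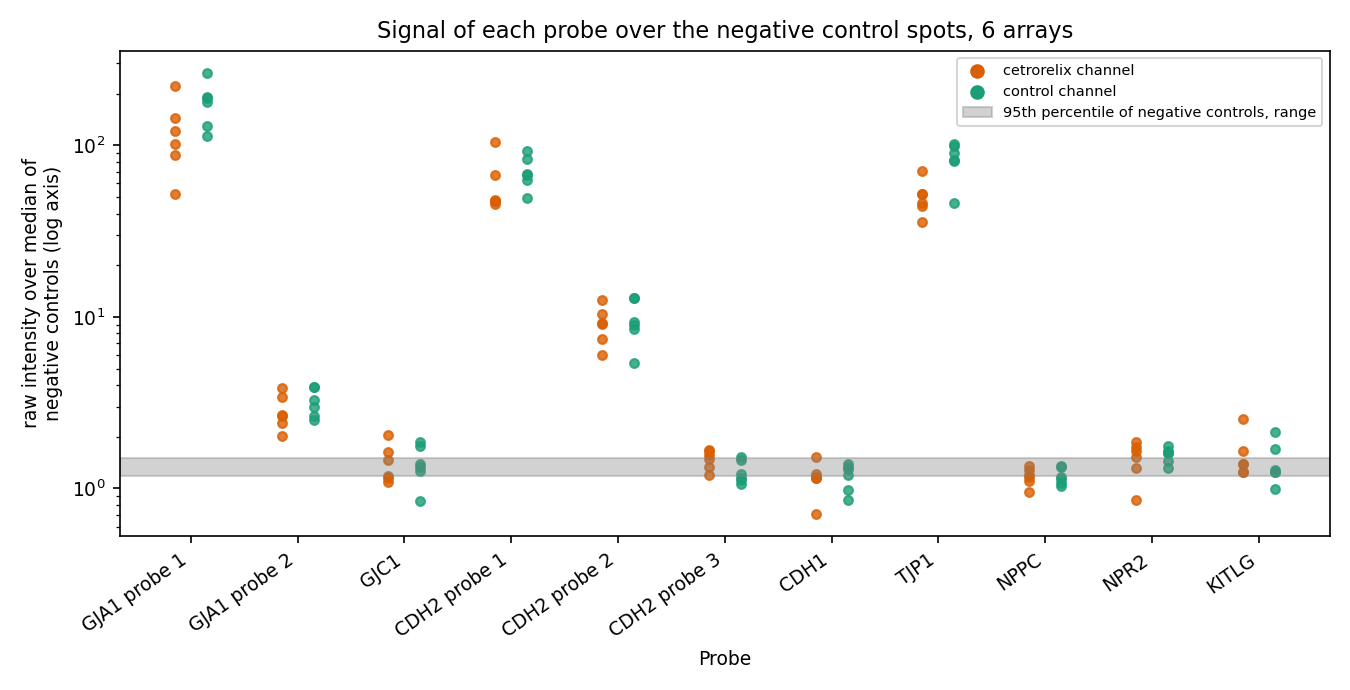
Raw signal over the median negative control of the same array and channel (log y axis) of the 11 probes, for the cetrorelix and the control RNA on 6 arrays. GJA1 probe 1, CDH2 probe 1 and TJP1 lie far above 1, GJA1 probe 2 and CDH2 probe 2 lie between 2.0 and 12.9, and the other 6 probes lie between 0.712 and 2.55.

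Other genes of the same machinery were read from their tested probe of highest mean intensity. Over all 12400 tested genes the median log2 ratio was -0.01; 1.21% were called higher and 0.323% lower by adjusted p, and 8.23% were higher and 9.13% lower at an unadjusted p under 0.05. Of the other connexins and pannexins, 9 of 20 could be tested, with a median of 0.04 and 0 below an unadjusted p of 0.05. The lowest p-values belonged to GJA10 (0.31 ± 0.15), PANX2 (-0.28 ± 0.26) and GJB1 (0.23 ± 0.15, adjusted p = 0.681). GJA10 was above background on 4 arrays in the cetrorelix channel and 2 in the control channel, and PANX2 on 1 and 5. Each of them thus passed the filter only through the group where it was higher, and its ratio is set against a signal mostly not above background. GJA4, the oocyte-side connexin, named here for that role, had a ratio of -0.11 ± 0.33 and was above background on 4 of 6 arrays in each channel.

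Of 28 further genes of adherens and tight junctions, 21 were tested, and their median was 0.00162. By limma 0 passed the adjusted test and 1 was higher at an unadjusted p under 0.05, ARVCF, a catenin that binds cadherin tails (0.52 ± 0.39, adjusted p = 0.248). VCL, the actin linker vinculin, had 0.46 ± 0.62, and the catenin CTNND1 had 0.35 ± 0.34. Without replicate 2 these were 0.11 and 0.17, and ARVCF was 0.31 without replicate 3. The 4 other tested probes of CTNND1 ranged from -0.14 to 0.43.

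All 10 listed genes of actin-based projections, the kind that cumulus cells extend to the oocyte, were tested, with a median of 0.18. FSCN1, which bundles actin filaments, rose 2.06-fold (log2 ratio 1.04 ± 0.37, n = 3, limma adjusted p = 0.0280), with a higher signal on 6 of 6 arrays. Its replicate ratios were 1.27, 1.25 and 0.61. MSN (0.56 ± 0.25) and RDX (-0.51 ± 0.60), which link actin to the membrane, lay on opposite sides of 0 at unadjusted p of 0.00914 and 0.0406. Their other tested probes, 2 each, ranged from -0.14 to 0.13 for MSN and from -0.13 to 0.13 for RDX. The means with cetrorelix in Cy5 and in Cy3 were 0.04 and 1.08 for MSN, and -0.17 and -0.85 for RDX. RDX was -0.48 without replicate 1, -0.22 without replicate 2 and -0.82 without replicate 3, with adjusted p of 0.762, 0.9995 and 0.0283 by limma.

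In the natriuretic peptide and cyclic GMP list, 11 of 17 genes were tested and the median was -0.10. IMPDH1, an enzyme that makes the precursor of guanine nucleotides, rose 2.38-fold, by a log2 ratio of 1.25 ± 0.64 with all 6 arrays above 0 (n = 3, limma adjusted p = 0.0280). Its replicate ratios were 0.93, 1.99 and 0.83. The clearance receptor NPR3 had -0.33 ± 0.35 and the related cyclase NPR1 had -0.25 ± 0.15, with limma adjusted p of 0.544 and 0.656. Without replicate 1, NPR3 was -0.13, and its 2 other tested probes ranged from -0.13 to 0.05. The means of NPR1 with cetrorelix in Cy5 and in Cy3 were -0.71 and 0.22. NPR1 was above background on 3 arrays in the cetrorelix channel and 5 in the control channel.

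For cyclic AMP and meiotic arrest, 10 of 12 genes were tested, with a median of 0.06. PRKAR1A, a regulatory subunit of protein kinase A, rose 1.995-fold, by 1.00 ± 0.48, again with all 6 arrays above 0 (n = 3, limma adjusted p = 0.0440) and with replicate ratios of 0.65, 1.55 and 0.79. PDE4B, which breaks down cyclic AMP, had 0.49 ± 0.23 at an unadjusted p of 0.0179 by limma. Its means with cetrorelix in Cy5 and in Cy3 were 1.07 and -0.09, so the rise was seen on 1 slide only. The receptor GPR12 had 0.43 ± 0.19, but it was above background on 4 arrays in the cetrorelix channel and on 1 in the control channel, so it passed the filter only through the group where it was higher and its ratio is set against a control signal mostly not above background.

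In the list of KIT and oocyte-factor signalling, 10 of 12 genes were tested, and the median was -0.13. By limma 0 passed the adjusted test, and 3 were lower at an unadjusted p under 0.05. They were the kinase subunit PIK3CA (-0.55 ± 0.21, lower on 6 of 6 arrays, adjusted p = 0.182), and the receptors BMPR1B (-0.44 ± 0.13, adjusted p = 0.284) and BMPR2 (-0.63 ± 0.81, adjusted p = 0.304). PIK3CA was above background on 3 of 6 arrays in the cetrorelix channel and on 6 of 6 in the control channel. BMPR2 was -1.09 without replicate 1 and -0.31 without replicate 2. The 2 other tested probes of each receptor lay between -0.22 and -0.06.

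The calls of FSCN1, IMPDH1 and PRKAR1A held under 8, 7 and 6 of 13 other settings. Without replicate 1 the log2 ratios were 0.93, 1.41 and 1.17, with adjusted p of 0.302, 0.204 and 0.216 by limma, a setting under which 0 of all tested probes were called and 2638 had an unadjusted p under 0.05. PRKAR1A was 0.72 without replicate 2 (adjusted p = 0.197). On the authors' normalized values the adjusted p was 0.0610, 0.0613 and 0.0787.

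**Figure D5:**
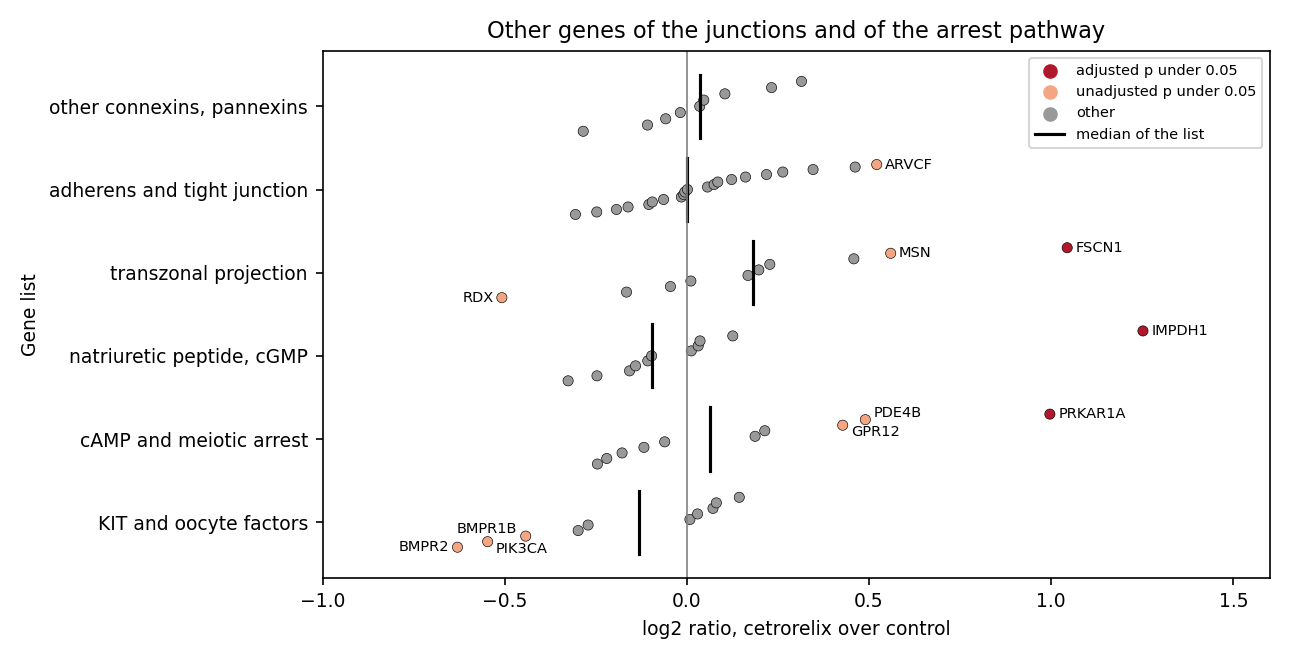
Log2 ratio of cetrorelix over control (x axis) of the tested genes of 6 lists of related genes, 1 point per gene, coloured by limma's p; the bars are list medians. FSCN1, IMPDH1 and PRKAR1A are the 3 points past the adjusted p, and the list medians lie between -0.13 and 0.18.

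The label of cumulus cells was set against marker genes. All 13 cumulus and granulosa markers were tested and 9 were above background in both channels of every array. Their summed level (log2 of the sum of unlogged values) was 17.71 to 17.77 after cetrorelix and 17.38 to 17.56 in the control. The sums did not overlap, but bright genes weigh most in them, and single levels failed to overlap for 13.3% of tested probes. By limma's adjusted test 1 of 13 genes was higher, GATA4 (1.09 ± 0.43), where 1.21% of all tested genes were. Without replicate 1 GATA4 was 0.90 with an adjusted p of 0.308. AMH (log2 ratio 1.48 ± 1.21) and INHA (0.70 ± 0.03), also higher on 6 of 6 arrays, had limma adjusted p of 0.0602 and 0.0830. The replicate ratios of AMH were 0.40, 2.79 and 1.24, and without replicate 2 its mean was 0.82. In the limma fit over 6 arrays with the replicate block AMH and INHA had adjusted p of 0.0246 and 0.0465. That fit counted the dye-swapped arrays of a replicate as nearly separate units, the correlation within replicates being -0.0653. Other markers were lower, among them FSHR (-0.37), INHBA (-0.32) and ESR2 (-0.29). Of the 13 markers, 8 lay above 0 and 5 below, and the median was 0.04. The part of these marker differences in the ratios above was not tested. Of 15 oocyte markers 7 were tested, and the sums were 10.47 to 10.94 and 10.46 to 10.61. GDF9, ZP4 and ZAR1 were above background on 0 arrays in either channel, whereas KPNA7 was above it on 6 and 6 arrays in the cetrorelix and control channels, H1-8 on 6 and 5, FIGLA on 5 and 6, and ZP3 on 4 and 5. KPNA7 and ZP3 have 3 probes each and H1-8 has 4, and their counts are the highest of any probe in each channel. Sums of theca and stroma markers (8 of 11 tested) were 13.61 to 13.88 after cetrorelix and 13.32 to 13.62 in the control. They overlapped only between 13.61 and 13.62. Endothelial (6 of 9), leukocyte (6 of 9), erythrocyte (5 of 7) and epithelial markers (3 of 8) overlapped between groups as well, with sums between 9.78 and 11.54.

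The array pattern of each member was compared with the other 12399 tested genes, by Pearson's r over 6 array ratios. The arrays share slides and extracts, and with 6 points high values are common: between 64 and 206 genes exceeded 0.9 for each member. The most alike were NPM1 (0.9989) and GRSF1 (0.9919) for GJA1, and ATP5IF1 (0.985) and LOC100297097 (0.979) for TJP1. For CDH2 they were HOPX and EFEMP2 (0.997 and 0.995), for CDH1 UIMC1 and MICU2 (0.9985 and 0.9925), and for GJC1 TMEM39A and CEP164 (0.986 and 0.985). NPR2 was closest to ORAI3 and CTSA (0.992 and 0.991), and KITLG to PDE4DIP and OTUB2 (0.996 and 0.992). Among the members themselves, r was 0.865 between GJC1 and TJP1 and -0.870 between GJC1 and CDH2, the highest and lowest of 21 pairs.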

How the data were processed

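Cumulus RNA was amplified, labelled with Cy3 or Cy5 and hybridised to 2-colour arrays, per the labels' protocols. The deposited scanner tables hold median spot and local background intensity in both dyes, not background-corrected, per the file headers. The authors also deposited log2 ratios. The submitters' processing notes name limma, with settings not given in the sources used here. These log2 values correlated at 0.987 to 0.994 per array with the ratios computed here, ran as Cy5 over Cy3 and, in the series table, as cetrorelix over control, with column medians of -0.03 to 0.01.

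Spots marked by the image analysis (36 to 94 of 45220 per array) were set to missing before any fit. Kept in the background fit, an alternative, they gave 4 calls. Intensities were corrected with normexp (offset 50) and normalized within arrays by loess, with control spots at weight 0. The offset draws ratios of dim probes towards 0. Levels also had Aquantile scaling between arrays. Probes above the 95th percentile of the negative controls on at least 3 arrays in either RNA's channel were kept (32358), and 233 with a marked spot were left out.

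Dye-swapped arrays were averaged within each replicate and tested against 0 by limma 3.58.1 in R 4.3.3 (lmFit and eBayes, two-sided), p-values being adjusted by Benjamini-Hochberg over 32125 probes; the method was tested on simulated data. Arrays were grouped by the labels. Deviations of same-numbered arrays correlated at 0.223, 0.379 and 0.361 in replicates 1, 2 and 3. Their ratios themselves correlated only at 0.0633, 0.251 and -0.12. The design text states a dye swap of each replicate, so the numbers were taken as pairs.

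Symbols came from the platform annotation, where 21790 probes had 1 symbol and 22004 were not listed with one. Named genes were every member probe, the 3 genes of lowest p in each list (related genes and cell type markers; for markers only those a result turns on are printed), the 2 most alike genes of each member, and cumulus and oocyte markers as a check of the label. Members and lists were chosen with earlier results of these data known. Alternatives were other background corrections, normalizations, filters and fits, leaving out replicates, and the authors' values.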

Additional observations from a re-analysis of the deposited data

Results flagged for a closer look

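GJA1 probe 1 differed between the slides. With cetrorelix in Cy5 its log2 ratio of cetrorelix over control averaged 0.21, and with cetrorelix in Cy3 it averaged -1.06, a difference of 1.28 (limma adjusted p = 0.00212) that had the same direction in 3 of 3 replicates. The slide difference passed that test for 4208 of 32125 tested probes. Effects of slide and of dye orientation cannot be told apart, and averaging the swapped arrays cancels a difference only where it is the same size in both orientations. No sample of a group could be tested as an outlier, since each group has 3.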

How the results depend on the processing

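No tested member passed the adjusted p under 13 other settings (12 for GJC1, CDH1, NPR2 and KITLG, which the stricter filter left out), and directions were kept except as follows. GJC1 was 0.034 with median centring, and CDH2 was 0.053 as the mean of its tested probes. Leaving out 1 replicate gave -0.82 to 0.046 for GJA1 probe 1 (reversed without replicate 2), -0.16 to -0.09 for GJA1 probe 2, -0.12 to 0.019 for GJC1 (reversed without replicate 2), -0.17 to 0.16 for CDH2 probe 1 (reversed without replicate 3), -0.015 to 0.25 for CDH2 probe 2 (reversed without replicate 3), -0.15 to 0.057 for CDH1 (reversed without replicate 2), -0.68 to -0.35 for TJP1, -0.31 to 0.049 for NPR2 and -0.0056 to 0.24 for KITLG (both reversed without replicate 3). Among markers, leaving out 1 replicate gave -0.030 to 0.53 for KPNA7, -0.0025 to 0.11 for KRT18 and -0.17 to 0.76 for KRT8, negative without replicates 1, 3 and 2.

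The count of called probes, 325 as reported, was 4 without background correction, 187 with local background subtracted, 16 with median centring, 9 on the authors' values, 417 without a filter and 365 with the stricter one. The fit over single arrays with the replicate number as a block gave 698, and with a dye term 1249. The correlation within replicates was -0.0653 without the dye term and 0.268 with it. At -0.0653 the dye-swapped arrays of a replicate counted as nearly separate units, whereas the main fit averaged them. Neither block fit changed a member's call, and AMH and INHA passed in both. Without single replicates the count of called probes ran from 0 (replicate 1 left out, 2638 at an unadjusted p under 0.05) to 2127 (replicate 3 left out). After the data were seen, marked spots kept in the fit (4) and an intensity trend (424) were added. The causes were not tested. Signals near the negative controls limit NPPC, CDH1, GJC1, KITLG and NPR2.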
